A study of Mus musculus with 5 samples.

Results

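The genes described here make the lysosome work: its acid hydrolases and their cofactors, its main membrane proteins and the vacuolar proton pump (V-ATPase). They were chosen by name, as every gene whose symbol starts with Atp6v or Atp6ap and 29 listed lysosomal genes. Of the 29 listed genes, Aga, Arsb, Manba and Sgsh had no probe set with a single gene symbol and were not analysed here. The other 25 and 15 V-ATPase genes gave 40 members, out of 8251 genes with a single-symbol probe set on the array. Genes with several probe sets were represented by the one of highest mean signal over the 5 arrays. A filter on dim probe sets left 38 of the 40 members among 5581 tested genes. The members below it were Gla (alpha-galactosidase A) and Ppt1 (palmitoyl-protein thioesterase). Gla gave signals of 246 and 419 on the ethanol arrays, 457 and 382 on the poly IC arrays and 296 on the naive array. Ppt1 gave 106 and 98.9 on the ethanol arrays, 98.6 and 363 on the poly IC arrays and 197 on the naive array.

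The RNA came from mouse peritoneal macrophages and was hybridised to Affymetrix MG-U74Av2 arrays, 1 array per sample. The question was what a single large oral amount of ethanol does to the response to poly IC, a man-made double-stranded RNA used to mimic viral infection. The treated groups were 2 pools of mice given poly IC (0.1 mg per mouse) plus ethanol (6 g/kg) and 2 pools given poly IC alone. All 4 pools were of 12-week-old female F1 mice from a C57Bl/6 by C3H cross, and the label of the first poly IC pool states no dose. Both were set against 1 array from an untreated (naive) control, whose label gives no strain, sex, age or pooling. Any difference in those traits and the treatment cannot be told apart. Ethanol was never given without poly IC on the arrays analysed here, so its own effect and an altered response to poly IC cannot be told apart. P-values measured the spread between pools, not between animals. The lone naive array was taken to vary as the treated pools did.

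Lysosomes break down what macrophages engulf. Their hydrolases work at acid pH, which the V-ATPase sets by pumping protons: its cytosolic V1 sector burns ATP and its membrane V0 sector carries the protons. Most soluble hydrolases reach the lysosome by a mannose 6-phosphate tag, and the transcription factors Tfeb, Tfe3 and Mitf can bind a shared element with the core CACGTG in many lysosomal promoters. Endosomal receptors that detect double-stranded RNA also need acidification.

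Signals are linear intensities that the submitters had scaled to a common target. Differences are given as log2(signal + 250) of the first-named group minus the second, a scale on which the changes of dim genes look smaller than they are. Means are given ± SD, with n = 2 for each treated group. A gene was called where limma, fitted over all 5581 genes with all 5 arrays, gave a Benjamini-Hochberg adjusted p under 0.05. Leaving out ethanol replicate 1 or 2 raised the weight limma gave to the variance of other genes (prior degrees of freedom 47.8 and 44.3, against 7.63). More genes were then called. Poly IC against naive calls gained that way came at unchanged differences and add no evidence about a gene. Signals of different probe sets are not compared with each other, because probe sets differ in brightness for equal RNA. All 38 tested members lay above the highest-reading of 19 control probe sets for bacterial and yeast genes, taken here as unspiked, on every array (299.6 to 443.8 by array).

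The samples carried macrophage RNA together with transcripts of other cells. All 10 macrophage markers were tested, and none lay below the unspiked controls in any group. Among them, Csf1r (the receptor for macrophage colony-stimulating factor) was not called in any comparison. It gave 33104 and 27611 on the ethanol arrays, 26448 and 27673 on the poly IC arrays and 34885 on the naive array. Other macrophage markers were not steady. Fcgr1 gave 12016 and 9109 on the ethanol arrays, 26225 and 33345 on the poly IC arrays and 3323 on the naive array. With poly IC against naive, Fcgr1 (3.06) and Cd14 (1.53) rose, and Mertk (-0.80) and Lgals3 (-0.61) fell. With ethanol against poly IC, Fcgr1 fell (-1.48). Markers of B cells moved with both treatments. Their summed signal over 12 tested of 16 listed genes was 229664 and 246544 on the ethanol arrays, 179710 and 164377 on the poly IC arrays and 379683 on the naive array. With poly IC against naive 11 of the 12 fell (median -1.43), and with ethanol against poly IC 5 rose and none fell (median 0.71). Neutrophil markers, 12 tested of 14 listed, summed to 46157 and 38220 on the ethanol arrays, 137793 and 99995 on the poly IC arrays and 23015 on the naive array. Of these, 8 rose and 1 fell with poly IC, and 6 fell with ethanol against poly IC. On the ethanol arrays 2 of the 12 lay below the unspiked controls, and on the naive array 7 neutrophil markers (S100a9, Ltf, Lcn2, Ngp, Cxcr2, Mmp8 and Ly6g) lay below the unspiked controls. With poly IC against naive, 2 of the 10 macrophage markers rose and 2 fell, and of 7 tested among 10 resident peritoneal macrophage markers 1 rose and 2 fell. Fewer calls came from T and NK cell (1 rise and 1 fall of 6), mast cell (1 rise of 5) and monocyte and dendritic cell markers (2 falls of 7), and both tested erythroid genes rose. With ethanol against poly IC the counts were 1 fall each of 10 macrophage, 7 resident and 5 mast cell markers, and no call among 6 T and NK cell, 7 monocyte and dendritic cell and 2 erythroid genes. The part of these other cells in the lysosomal results was not tested. In pooled tissue RNA, fewer cells of a type and less RNA per cell cannot be told apart. The 18S ribosomal RNA signal also differed between pools, at 8225 and 19415 on the ethanol arrays, 5113 and 66548 on the poly IC arrays and 7277 on the naive array.

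Of the 38 tested members, 12 were called in at least 1 comparison. With poly IC against naive and with ethanol against poly IC, the largest differences were those of Smpd1, Arsa, Npc1 and Asah1. Between poly IC and naive arrays, 9 of the 38 tested members fell and 3 rose, where 20.1% of all tested genes fell and 11.7% rose. Their median difference was -0.27, against -0.16 for all genes. Between poly IC plus ethanol and poly IC, 4 members rose and none fell, where 5.77% of all tested genes rose and 4.8% fell. At an unadjusted p under 0.05 these numbers were 10 and 2 of the members, beside 838 and 603 of all 5581 genes. The median was 0.085 for members and 0.07 for all genes. Between poly IC plus ethanol and naive arrays, 1 member rose and 2 fell, where 8.39% of all genes rose and 8.26% fell, with medians of -0.015 and -0.11. In either direction 31.6% of members were called with poly IC and 10.5% with ethanol against poly IC, beside 31.8% and 10.6% of all genes, so the members as a group were called about as often as any gene. Both ethanol arrays lay above both poly IC arrays for 17 members and below them for 4, where 33.1% and 21.7% of all genes did so. Centring each array on the median of the tested genes, chosen after the data were seen, added 0.20 to every poly IC against naive difference and gave 5 rises and 5 falls among the members.

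**Figure D1:**
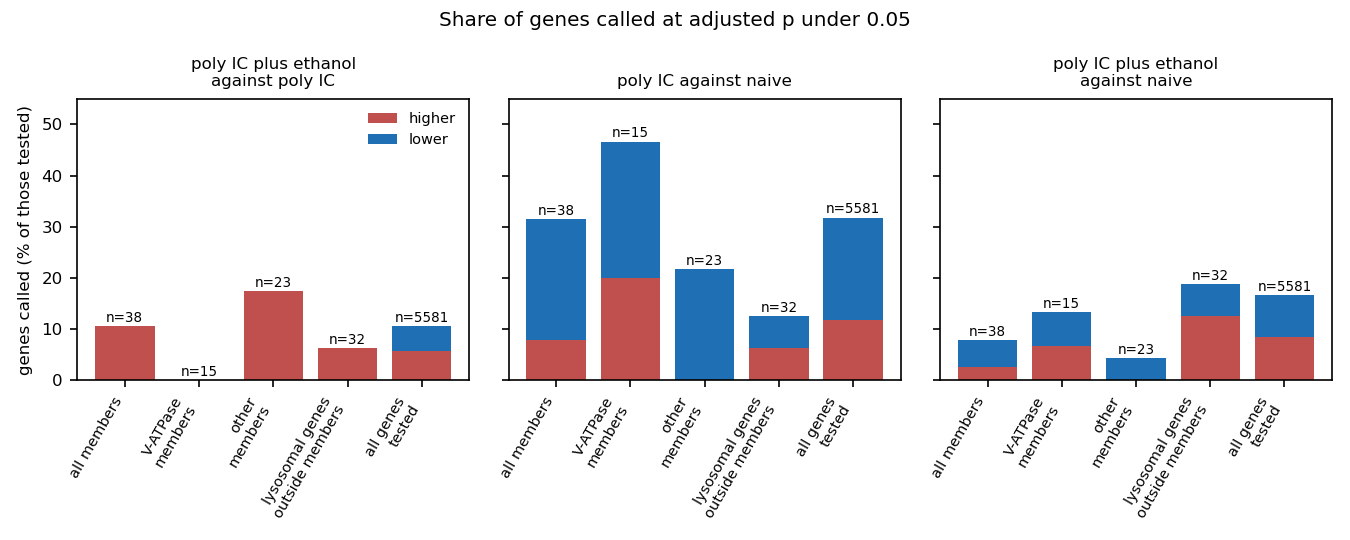
Share of genes called at adjusted p under 0.05 (vertical axis, % of genes tested; red called higher, blue called lower) for all 38 members, the 15 V-ATPase members, the other 23 members, 32 lysosomal genes outside the members and all 5581 tested genes. The members' bars reach 10.5% with ethanol against poly IC and 31.6% with poly IC against naive, next to 10.6% and 31.8% for all genes.

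**Figure D2:**
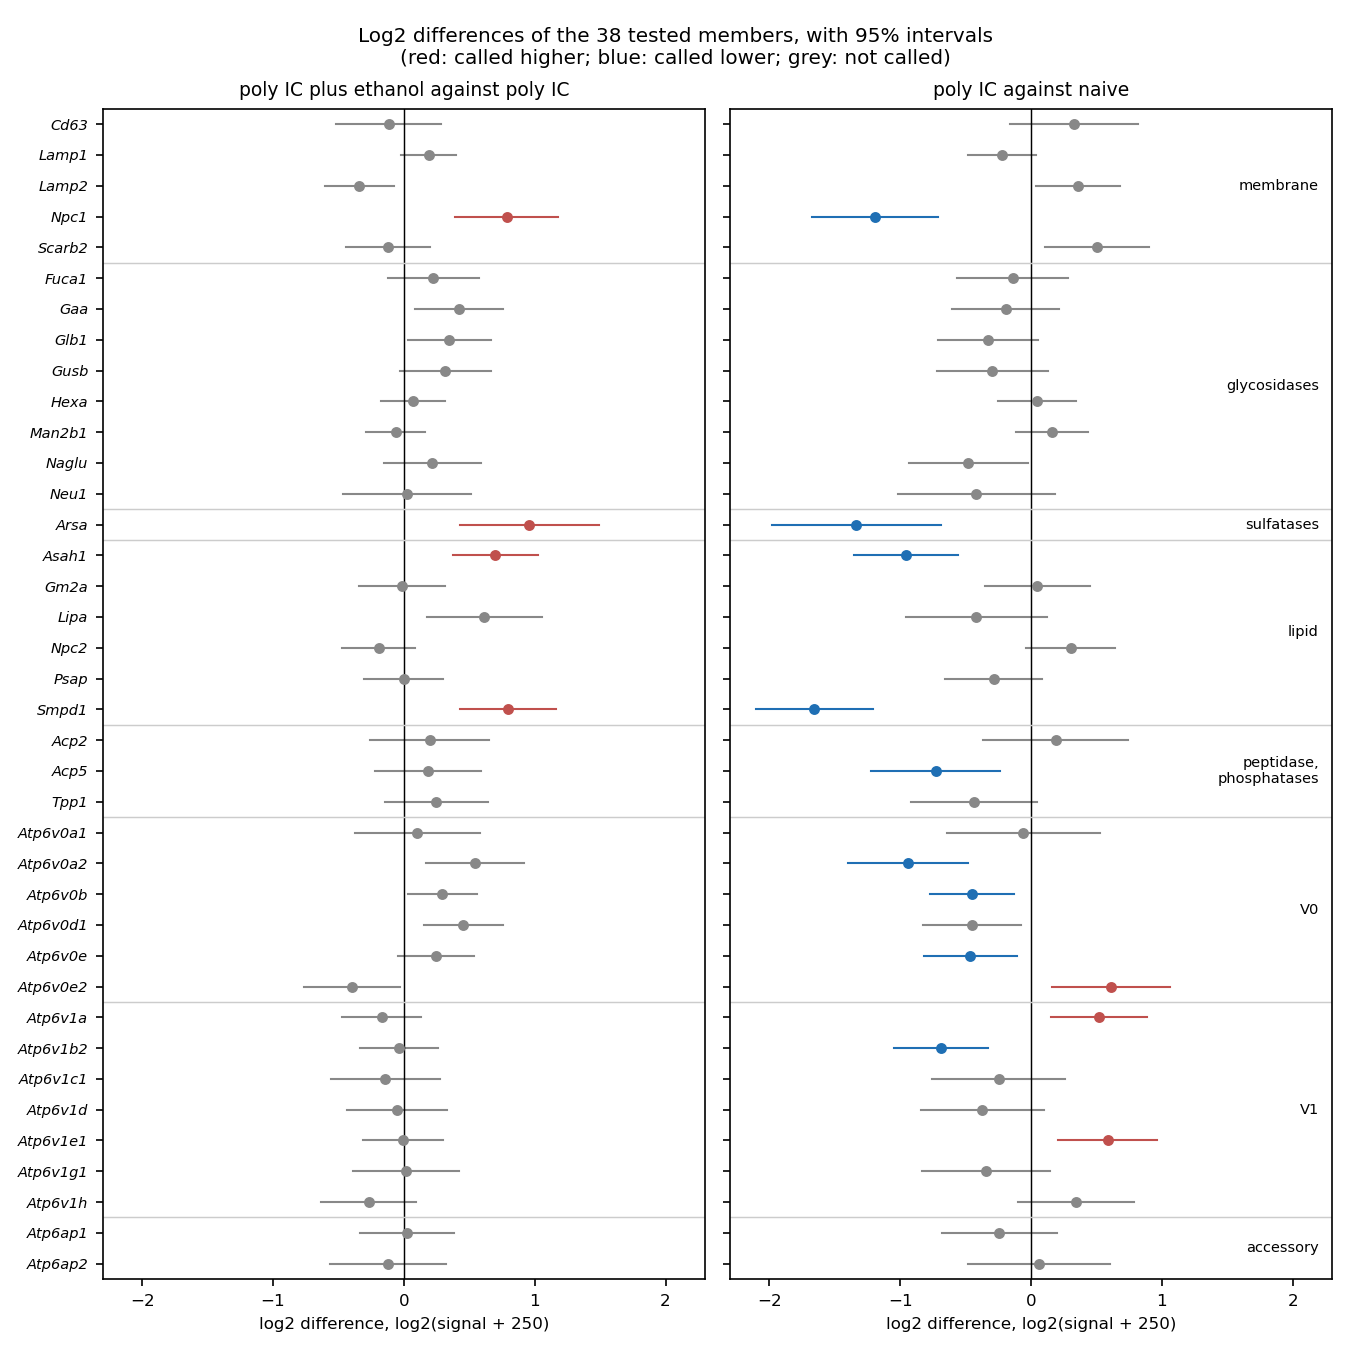
Log2 differences (horizontal axis, log2(signal + 250)) of the 38 tested members in poly IC plus ethanol against poly IC (left) and poly IC against naive (right), grouped by role. Points are limma estimates and lines 95% intervals; red was called higher, blue called lower and grey not called, and Smpd1, Npc1, Asah1 and Arsa are the only members called in both panels.

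Smpd1, Asah1, Arsa and Npc1 handle sphingolipids and cholesterol, and each was called both with poly IC against naive and with ethanol against poly IC. Smpd1, acid sphingomyelinase, cleaves sphingomyelin to ceramide. Its signals were 4716 and 5666 on the ethanol arrays, 2940 and 2794 on the poly IC arrays and 9568 on the naive array. The 3 groups did not overlap, and the poly IC arrays were the lowest. Smpd1 averaged 2867 ± 103 with poly IC against 9568 in the naive sample, and it fell (log2 difference -1.66, SE 0.20, adjusted p = 0.000205). With ethanol it averaged 5191 ± 672, higher than with poly IC alone (0.80, SE 0.16, adjusted p = 0.0152) and still lower than naive (-0.86, SE 0.20, adjusted p = 0.017).

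Asah1, acid ceramidase, takes the next step and splits ceramide into sphingosine and a fatty acid. It gave 8033 and 7800 on the ethanol arrays, 4604 and 4971 on the poly IC arrays and 9500 on the naive array. The poly IC arrays were again the lowest, and the ethanol arrays lay between them and the naive array. Asah1 fell with poly IC (-0.95, SE 0.18, adjusted p = 0.0028) and was higher with ethanol than with poly IC alone (0.70, SE 0.14, adjusted p = 0.0162). Against naive, the ethanol difference was -0.26 (95% interval -0.65 to 0.14, adjusted p = 0.369). The pairs of each treated group lay close together, with SDs of 164 around 7917 for ethanol and 259 around 4788 for poly IC.

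Npc1, the membrane protein that moves cholesterol out of the lysosome, followed the same order. Its signals were 2892 and 3475 on the ethanol arrays, 1698 and 1770 on the poly IC arrays and 4283 on the naive array. It fell with poly IC (-1.19, SE 0.22, adjusted p = 0.00242) and was higher with ethanol than with poly IC alone (0.79, SE 0.18, adjusted p = 0.0221). Its partner Npc2, a soluble protein that hands cholesterol to Npc1, was not called. Npc2 averaged 34046 ± 2116 with ethanol and 39095 ± 5727 with poly IC (-0.19, 95% interval -0.47 to 0.09), against 31499 in the naive sample.

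Arsa, arylsulfatase A, removes sulfate from the myelin lipid sulfatide. It gave 5033 and 3554 on the ethanol arrays, 1623 and 2586 on the poly IC arrays and 5562 on the naive array. The pools of each treated group were further apart than for Asah1, but the groups did not overlap. Arsa fell with poly IC (-1.33, SE 0.29, adjusted p = 0.00639) and was higher with ethanol than with poly IC alone (0.96, SE 0.24, adjusted p = 0.0314). A second Arsa probe set, just under the filter, ordered the groups differently, with 481.3 and 371.1 on the ethanol arrays, 688.3 and 566.6 on the poly IC arrays and 456.7 on the naive array.

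All 4 genes fell with poly IC in each of 13 alternative analyses. Their ethanol differences share the poly IC arrays with that fall, so an error of those arrays would move both. The ethanol calls of Asah1 and Npc1 were lost without poly IC replicate 1 (0.65 and 0.76) and without replicate 2 (0.75 and 0.81), as was that of Smpd1 (0.83 and 0.77). That of Arsa was lost without poly IC replicate 1 (0.66), and with each array centred on the tested genes (0.87). Centring on the array median ended the ethanol calls of Arsa (0.86) and Asah1 (0.60). Testing without the filter ended those of Arsa (adjusted p = 0.0867) and Npc1 (adjusted p = 0.0587). A variance model without an intensity trend ended all 4 ethanol calls, with unchanged differences. B cell markers stood in the same order over the groups, with the highest sum on the naive array and the lowest on the poly IC arrays.

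**Figure D3:**
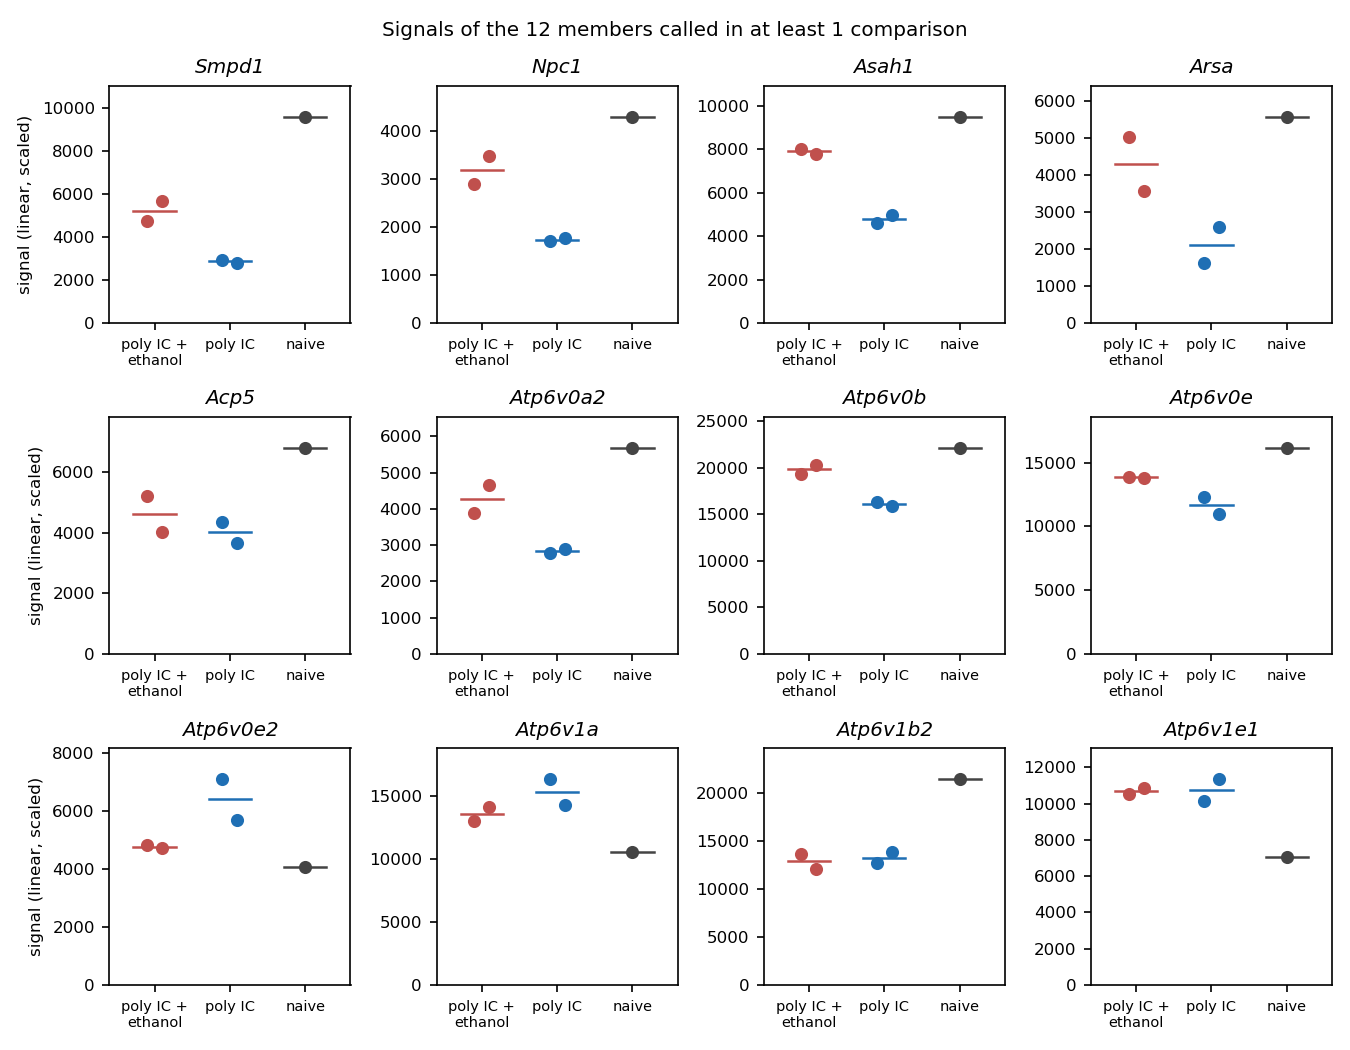
Signals (vertical axis, linear scaled intensity, from 0) of the 12 members called in at least 1 comparison, in poly IC plus ethanol (red, 2 arrays), poly IC (blue, 2 arrays) and naive samples (black, 1 array); bars are group means. For Smpd1, Npc1, Asah1 and Arsa both ethanol points lie between the poly IC points and the naive point.

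The remaining lipid enzymes and cofactors were not called. Lipa, the acid lipase that frees cholesterol from its esters, gave 2031 and 2563 on the ethanol arrays, 1429 and 1378 on the poly IC arrays and 1960 on the naive array. Its ethanol difference of 0.62 missed the threshold (adjusted p = 0.0778) and passed it without ethanol replicate 1 (0.77). Psap, the precursor of the saposins that present lipids to hydrolases, gave 39469 and 30023 on the ethanol arrays, 34996 and 33911 on the poly IC arrays and 42071 on the naive array. Its ethanol arrays lay on either side of the poly IC arrays. Psap was called with poly IC against naive after quantile normalization (-0.63, against -0.29) and with ethanol against naive without ethanol replicate 1 (-0.48, against -0.29). For Gm2a, which presents the ganglioside GM2 to hexosaminidase, the ethanol difference was -0.02 (95% interval -0.34 to 0.31) and the poly IC difference 0.05 (95% interval -0.36 to 0.45).

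Glycosidases, which strip sugars from glycoproteins, glycolipids and glycogen, gave no call in any comparison among 8 tested members. At an unadjusted p under 0.05, limma gave 1 of them lower with poly IC against naive, 2 higher with ethanol against poly IC and 0 with ethanol against naive. Over all 5581 genes it gave 1511 lower, 838 higher and 1697 in either direction in these comparisons. The glycosidase median was -0.24 with poly IC and 0.22 with ethanol against poly IC. Man2b1, an alpha-mannosidase, gave 65052 and 60549 on the ethanol arrays, 61357 and 70156 on the poly IC arrays and 58778 on the naive array. Hexa, the alpha subunit of hexosaminidase, gave 27726 and 26542 on the ethanol arrays, 25421 and 26344 on the poly IC arrays and 25095 on the naive array. Both genes varied little over the 5 arrays, and the ethanol interval of Hexa ran from -0.18 to 0.31. Both ethanol arrays lay above both poly IC arrays for 6 of the 8 glycosidases, beside 33.1% of all genes, a contrast that was not tested. Among the 6 were Gaa, which degrades glycogen (0.42, adjusted p = 0.109), and Glb1, a beta-galactosidase (0.35, adjusted p = 0.151). Gusb, beta-glucuronidase, was another (0.32, adjusted p = 0.234). Gaa passed the threshold without ethanol replicate 1 and Gusb without ethanol replicate 2. Naglu, an enzyme of heparan sulfate breakdown, differed by -0.48 between poly IC and naive (95% interval -0.94 to -0.02, adjusted p = 0.103). It was called there, at the same difference, only when either ethanol array was left out. Neu1, a sialidase, gave 1076 and 1291 on the ethanol arrays, 1172 and 1143 on the poly IC arrays and 1631 on the naive array.

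Among the peptidase and phosphatases, Acp5, the tartrate-resistant acid phosphatase also known from osteoclasts, was the member called. It gave 5203 and 4025 on the ethanol arrays, 4358 and 3672 on the poly IC arrays and 6798 on the naive array. All 4 treated arrays lay below the naive array, and the treated groups overlapped. Acp5 fell with poly IC (-0.73, SE 0.22, adjusted p = 0.0301). Leaving out poly IC replicate 1 (-0.85) or replicate 2 (-0.61) ended the call, as did centring on the tested genes (-0.53), centring on the array median (-0.64) and quantile normalization (-0.60). Testing without the filter and a variance model without trend also ended it, at an unchanged difference. With ethanol against naive Acp5 differed by -0.55 (adjusted p = 0.127) and was called without ethanol replicate 1 (-0.72). Tpp1, a tripeptidyl peptidase, gave 9722 and 9225 on the ethanol arrays, 6669 and 9463 on the poly IC arrays and 10818 on the naive array. It was called between poly IC and naive (-0.43) when either ethanol array was left out. Acp2, a lysosomal acid phosphatase, gave 1888 and 1744 on the ethanol arrays, 1383 and 1730 on the poly IC arrays and 1330 on the naive array, and neither of its differences passed.

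The abundant membrane proteins apart from Npc1 were not called. Lamp1, a glycoprotein that lines the lysosomal membrane, gave 50405 and 50502 on the ethanol arrays, 43186 and 45327 on the poly IC arrays and 51586 on the naive array. Its ethanol arrays lay above the poly IC arrays (0.19, 95% interval -0.02 to 0.40, adjusted p = 0.245), and the poly IC difference was -0.22 (adjusted p = 0.178). After quantile normalization Lamp1 was called in both comparisons (0.38 with ethanol, adjusted p = 0.0219, and -0.59 with poly IC, adjusted p = 0.00212). Lamp2, which also serves chaperone-mediated autophagy, was ordered the other way. It gave 28193 and 24164 on the ethanol arrays, 32245 and 33952 on the poly IC arrays and 25732 on the naive array. Its ethanol difference was -0.34 (95% interval -0.60 to -0.08, adjusted p = 0.102), and it passed without ethanol replicate 1 (-0.45). Its poly IC difference was 0.36 (adjusted p = 0.0864), which passed when either ethanol array was left out and after centring on the tested genes (0.56). A second Lamp2 probe set gave -0.50 with ethanol and 0.64 with poly IC, also not called. Scarb2, the receptor that carries glucocerebrosidase to the lysosome, gave 10895 and 9972 on the ethanol arrays, 10460 and 12337 on the poly IC arrays and 7920 on the naive array. All its treated arrays lay above the naive array (poly IC difference 0.51, adjusted p = 0.0538), and the poly IC difference passed without either ethanol array and under 3 other settings. Cd63, a tetraspanin of late endosomes, gave 6827 and 5008 on the ethanol arrays, 6054 and 6682 on the poly IC arrays and 5024 on the naive array.

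V-ATPase genes were called in both directions with poly IC, and none of 15 was called with ethanol against poly IC. At an unadjusted p under 0.05 limma gave 3 of them higher and 1 lower with ethanol, beside 838 and 603 of all 5581 genes. With poly IC against naive 3 rose and 4 fell, 46.7% of the 15 beside 31.8% of all genes, a contrast that was not tested. In the V0 sector, 3 of 6 genes fell and 1 rose. Atp6v0b, the c'' subunit of the proton-carrying ring, gave 19343 and 20318 on the ethanol arrays, 16298 and 15941 on the poly IC arrays and 22129 on the naive array. It fell with poly IC (-0.45, SE 0.14, adjusted p = 0.0375), with the ethanol arrays between the other groups (0.29, adjusted p = 0.148). The small e subunit of this sector is encoded by Atp6v0e and by its paralogue Atp6v0e2. Atp6v0e gave 13897 and 13801 on the ethanol arrays, 12295 and 11007 on the poly IC arrays and 16152 on the naive array, and it fell with poly IC (-0.46, SE 0.16, adjusted p = 0.0494). Atp6v0e2 gave 4830 and 4731 on the ethanol arrays, 7118 and 5701 on the poly IC arrays and 4083 on the naive array, and it rose with poly IC (0.61, SE 0.20, adjusted p = 0.0432). For both paralogues the ethanol arrays lay between the poly IC and naive arrays. The ethanol differences of 0.25 and -0.40 missed the threshold.

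Atp6v0a2 and Atp6v0a1 encode alternative a subunits, which anchor the pump and steer it to different membranes. Atp6v0a2 gave 3898 and 4671 on the ethanol arrays, 2785 and 2909 on the poly IC arrays and 5684 on the naive array. It fell with poly IC (-0.94, SE 0.20, adjusted p = 0.00654), and its ethanol difference was 0.55 (adjusted p = 0.0692; called without ethanol replicate 1, 0.67). Its 2 other probe sets gave poly IC differences of 0.05 and -0.11 with adjusted p of 0.912 and 0.807, and over the mean of the 3 probe sets the call was lost (-0.33). The fall of Atp6v0a2 therefore rests on a single probe set. Atp6v0a1 gave 1608 and 1904 on the ethanol arrays, 1381 and 1878 on the poly IC arrays and 1694 on the naive array. Atp6v0d1, the d subunit that couples the sectors, gave 10481 and 10412 on the ethanol arrays, 7818 and 7292 on the poly IC arrays and 10433 on the naive array. The ethanol and naive arrays were level for Atp6v0d1 and the poly IC arrays lower. Its differences missed the threshold with poly IC (-0.45, adjusted p = 0.0644, called when either ethanol array was left out) and with ethanol (0.46, adjusted p = 0.0641).

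In the V1 sector, 2 of 7 genes rose with poly IC and 1 fell. Atp6v1a, the catalytic A subunit, gave 13013 and 14145 on the ethanol arrays, 16354 and 14252 on the poly IC arrays and 10580 on the naive array. It rose with poly IC (0.52, SE 0.16, adjusted p = 0.0374). Its other probe sets gave 0.17 and 0.58, neither called, and over their mean the call was lost (0.42). Atp6v1e1, part of the peripheral stalk, gave 10522 and 10850 on the ethanol arrays, 10142 and 11356 on the poly IC arrays and 7068 on the naive array. It was higher than naive with poly IC (0.59, SE 0.17, adjusted p = 0.0246) and with ethanol (0.58, SE 0.17, adjusted p = 0.0434), and the treated groups overlapped. Atp6v1b2, the B subunit that shares the ATP-binding ring with A, gave 13692 and 12125 on the ethanol arrays, 12661 and 13830 on the poly IC arrays and 21474 on the naive array. It fell with poly IC (-0.69, SE 0.16, adjusted p = 0.00935) and with ethanol against naive (-0.73, SE 0.16, adjusted p = 0.0133). Its second probe set gave -0.23 and -0.32, not called, and over the mean of both the calls were lost (-0.46 and -0.52).

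The other V1 genes, Atp6v1c1, Atp6v1d, Atp6v1g1 and Atp6v1h, and the accessory genes Atp6ap1 and Atp6ap2 were not called. Atp6ap1 encodes an assembly factor of the pump and gave 10780 and 8300 on the ethanol arrays, 8866 and 9764 on the poly IC arrays and 11045 on the naive array. Atp6ap2, the prorenin receptor, gave 3227 and 2308 on the ethanol arrays, 3212 and 2798 on the poly IC arrays and 2866 on the naive array. Without ethanol replicate 1, Atp6v1c1 (-0.59) and Atp6v1g1 (-0.53) were called lower with ethanol against naive. Several V-ATPase calls with poly IC were lost when a poly IC array was left out, which left 1 array on each side of the comparison. Without poly IC replicate 1 those of Atp6v0b (-0.47), Atp6v0e (-0.54), Atp6v0e2 (0.46), Atp6v1a (0.42), Atp6v1e1 (0.67) and Atp6v1b2 (-0.63) were lost. Without replicate 2 those of Atp6v0b (-0.44), Atp6v0e (-0.39), Atp6v0e2 (0.77), Atp6v1a (0.62) and Atp6v1e1 (0.51) were lost. The ethanol against naive call of Atp6v1e1 was also lost without either poly IC array (adjusted p = 0.0886 and 0.0898). Centring on the tested genes ended the falls of Atp6v0b (-0.25), Atp6v0e (-0.27) and Atp6v1b2 (-0.49). Centring on the array median ended the same falls (-0.37, -0.38 and -0.60). Testing without the filter ended the calls of Atp6v0e and Atp6v0e2, and quantile normalization that of Atp6v1a (0.45). A variance model without trend ended every V-ATPase call with poly IC except that of Atp6v0a2. It also ended the ethanol against naive calls of Atp6v1b2 and Atp6v1e1.

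**Figure D4:**
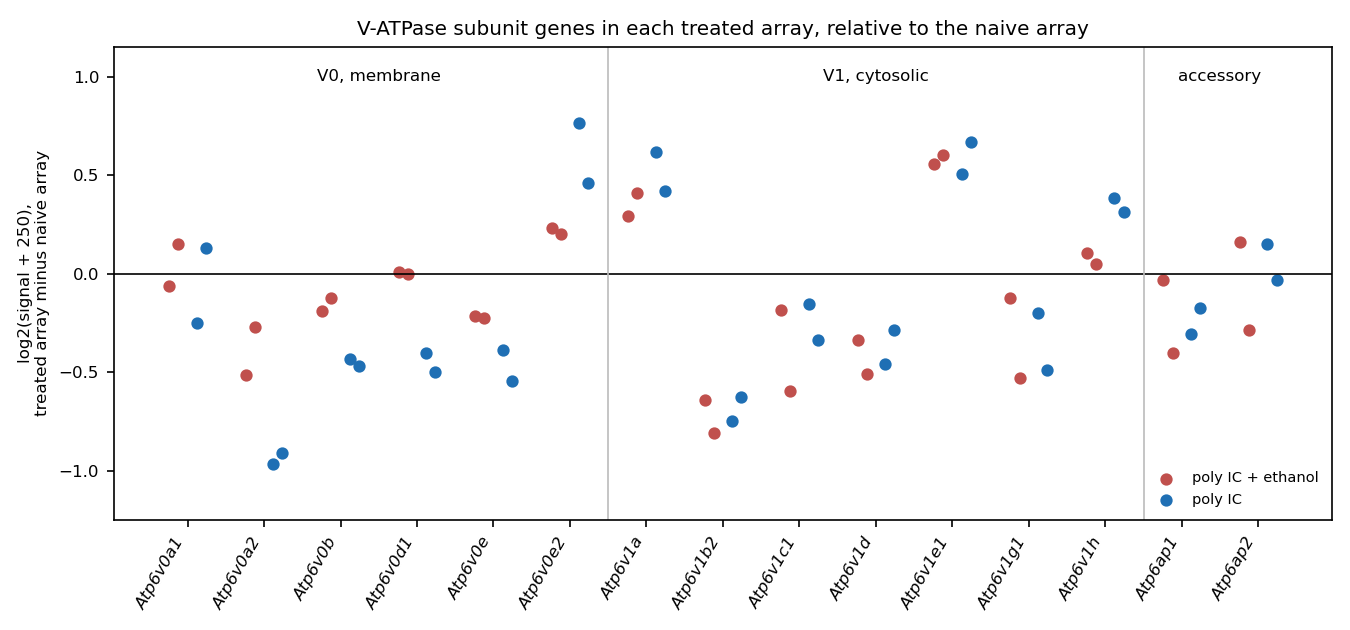
V-ATPase subunit genes by sector: log2(signal + 250) of each treated array minus that of the naive array (vertical axis), with poly IC plus ethanol in red and poly IC in blue, 2 arrays each. For Atp6v0a2, Atp6v0b, Atp6v0d1 and Atp6v0e both blue points lie below both red points, whereas for Atp6v0e2, Atp6v1a and Atp6v1h they lie above them.

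Promoter sequences were examined for the element with the core CACGTG that is known from many lysosomal genes. RefSeq windows of 300 bases (250 before to 50 after the start of the gene, GRCm38.p6) were found for 33 of the 40 members, as 36 windows. Asah1, Atp6v0a2, Atp6v1b2, Atp6v1c1, Atp6v1g1, Atp6v1h and Npc1 were not among them. The core CACGTG, which reads the same on both strands, was in 10 of the 36 windows (27.8%) and in 7.15% of all 32851 windows in the table. The longer forms contain this core. TCACGTGA was in 11.1% of member windows and 0.974% of all. GTCACGTG on either strand was in 19.4% of member windows (7 windows) and 2.25% of all (738 windows). The full palindromic CLEAR consensus was in 0 of 36 and 0.326%. The windows with the core were those of Arsa, Atp6v0b, Atp6v0d1, Atp6v0e, Atp6v1a, Gaa, Gla, Glb1, Lamp1 and Naglu. Lamp1 held 4 copies, within 61 bases before its start. A match is a description of the letters and does not show binding. The 4 windows below are shown because they pair genes by their response. Smpd1 and Arsa both fell with poly IC and were higher with ethanol, and the core is in the window of Arsa and not in that of Smpd1. Atp6v1a rose and Atp6v0e fell with poly IC, and both windows hold it. Capitals mark CACGTG, and each sequence runs 5′ to 3′ on the strand of the gene.
Smpd1, chr7:105554110-105554409, plus strand: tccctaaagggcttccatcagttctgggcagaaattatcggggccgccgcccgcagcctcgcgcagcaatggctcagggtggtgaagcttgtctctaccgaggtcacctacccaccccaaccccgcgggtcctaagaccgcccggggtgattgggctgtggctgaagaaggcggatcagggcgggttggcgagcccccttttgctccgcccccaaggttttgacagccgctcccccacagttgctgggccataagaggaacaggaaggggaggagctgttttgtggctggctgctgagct
Arsa, chr15:89477375-89477674, minus strand: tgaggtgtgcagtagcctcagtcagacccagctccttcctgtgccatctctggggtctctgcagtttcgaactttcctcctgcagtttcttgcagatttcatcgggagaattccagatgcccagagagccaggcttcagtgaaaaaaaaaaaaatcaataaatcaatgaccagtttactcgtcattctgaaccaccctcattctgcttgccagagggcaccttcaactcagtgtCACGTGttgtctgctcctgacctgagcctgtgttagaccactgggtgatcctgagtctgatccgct
Atp6v1a, chr16:44139210-44139509, minus strand: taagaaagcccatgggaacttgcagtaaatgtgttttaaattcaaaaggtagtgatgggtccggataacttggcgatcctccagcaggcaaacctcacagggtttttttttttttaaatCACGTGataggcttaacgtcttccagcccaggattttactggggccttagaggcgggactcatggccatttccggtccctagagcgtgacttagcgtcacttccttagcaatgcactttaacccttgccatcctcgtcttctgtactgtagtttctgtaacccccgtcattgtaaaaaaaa
Atp6v0e, chr17:26676146-26676445, plus strand: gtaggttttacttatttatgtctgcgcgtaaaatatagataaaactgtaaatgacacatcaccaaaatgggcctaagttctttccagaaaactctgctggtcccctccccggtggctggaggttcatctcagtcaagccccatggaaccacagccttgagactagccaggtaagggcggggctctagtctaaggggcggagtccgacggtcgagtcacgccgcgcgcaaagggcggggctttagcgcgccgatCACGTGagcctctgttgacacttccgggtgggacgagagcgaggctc
Among genes with the core, Atp6v1a rose and Arsa, Atp6v0b and Atp6v0e fell with poly IC. Atp6v0d1, Gaa, Glb1, Lamp1 and Naglu were not called, and Gla was below the filter. The Atp6v1a call was lost over the mean of its probe sets, and that of Atp6v0e lay near the threshold (limma adjusted p = 0.0494). Whether the core goes with the response was not tested.

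Lysosomal genes outside the members were listed by role. Of 32 tested, 2 rose and 2 fell with poly IC, 2 rose and none fell with ethanol against poly IC (3 and 0 at an unadjusted p under 0.05), and 4 rose and 2 fell with ethanol against naive. In either direction 12.5%, 6.25% and 18.8% of them were called in these comparisons, beside 31.8%, 10.6% and 16.6% of all genes. Their medians were -0.15, 0.13 and -0.11. Over all 5581 genes, limma gave 838 higher and 603 lower with ethanol against poly IC at an unadjusted p under 0.05. None of 8 tested further enzymes was called in any comparison. With poly IC, limma gave 2 of them an unadjusted p under 0.05, beside 2358 of all 5581 genes. Sumf1, which activates sulfatases such as Arsa, gave 640 and 645 on the ethanol arrays, 280 and 256 on the poly IC arrays and 822 on the naive array. Both poly IC signals lay below the brightest unspiked control. Sumf1 is given no difference here. It was called lower with poly IC against naive only under the variance model without trend (adjusted p = 0.0135).

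Among 12 further membrane proteins, Cln3 and Slc11a1 rose with ethanol against poly IC. Cln3, whose loss causes juvenile Batten disease, gave 7219 and 6354 on the ethanol arrays, 4572 and 4332 on the poly IC arrays and 4132 on the naive array (0.58, SE 0.16, adjusted p = 0.0433). Slc11a1, a metal ion transporter of the phagosome, gave 18582 and 17310 on the ethanol arrays, 12315 and 13246 on the poly IC arrays and 12258 on the naive array (0.48, SE 0.13, adjusted p = 0.0401). Both calls were lost without poly IC replicate 1 (0.62 for Cln3 and 0.43 for Slc11a1) and without replicate 2 (0.54 and 0.53), and after centring on the tested genes (0.49 and 0.39). Centring on the array median (0.48 and 0.38), testing without the filter and a variance model without trend also ended both. That of Cln3 was also lost without ethanol replicate 1 (0.49) and after quantile normalization (0.51). Both genes were also called higher with ethanol than in the naive sample (0.68 and 0.54). These calls were lost without either poly IC array (adjusted p = 0.0848 and 0.0828 for Cln3, 0.0805 and 0.0811 for Slc11a1), with median-centred arrays (0.67 and 0.53), without the filter and without the intensity trend. Neither gene was called between poly IC and naive (0.10 and 0.06). Clcn7, the chloride-proton exchanger of the lysosome, gave 3430 and 3542 on the ethanol arrays, 4130 and 4954 on the poly IC arrays and 2311 on the naive array. It rose with poly IC (0.90, SE 0.21, adjusted p = 0.00857), a call lost without poly IC replicate 2 (0.77). Tcirg1, which encodes a further a subunit of the V-ATPase, gave 8658 and 12110 on the ethanol arrays, 7943 and 9326 on the poly IC arrays and 5488 on the naive array. It rose with ethanol against naive (0.87, SE 0.22, adjusted p = 0.0249), a call lost without the filter and without the intensity trend. With poly IC it missed the threshold (0.63, adjusted p = 0.0566). That difference passed after centring on the tested genes (0.82) or the array median (0.71) and after quantile normalization (0.72). It also passed with a filter at the 60th percentile and when either ethanol array was left out.

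Among 12 sorting and transcription genes, 1 rose and 2 fell with poly IC, and none was called with ethanol against poly IC. In the latter comparison 1 had an unadjusted limma p under 0.05, beside 1441 of all 5581 genes. Gga2, an adaptor that moves hydrolase receptors out of the Golgi, gave 3646 and 3880 on the ethanol arrays, 2901 and 2115 on the poly IC arrays and 8539 on the naive array. It fell with poly IC (-1.69, SE 0.23, adjusted p = 0.000401) and with ethanol against naive (-1.13, adjusted p = 0.00761). Ap3d1, a subunit of the adaptor that sends membrane proteins to lysosomes, fell in the same comparisons (-0.78 and -0.80). Its first call was lost without poly IC replicate 1 (-0.76) or replicate 2 (-0.81). Its second was lost under the variance model without trend (limma adjusted p = 0.0561). Mitf, a member of the factor family that binds the core described above, gave 2223 and 2080 on the ethanol arrays, 1521 and 2757 on the poly IC arrays and 572 on the naive array. It rose with poly IC (1.49, SE 0.32, adjusted p = 0.00568) and with ethanol against naive (1.55, adjusted p = 0.00858).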

How the data were processed

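The authors deposited an intensity for every probe set of each array, on a linear scale. Per the labels, the signals came from Affymetrix Microarray Suite 5.0, were scaled to a target of 2500 over all probe sets, and were handled in Data Mining Tool 3.0. Overall RNA loss or gain is hidden by that scaling. Of 12488 probe sets, 66 were controls. Of the others, 10833 had 1 gene symbol and were used, 396 had several and 1193 none listed. Entrez IDs gave current symbols from a RefSeq table of GRCm38.p6 (10817 found). Probe sets under the 40th percentile of mean signal (513) were left out. Log2(signal + 250) values of the 5 arrays were fitted in limma 3.58.1 (R 4.3.3) with a mean per group, eBayes and an intensity trend, on 2 residual and 7.63 prior degrees of freedom. Two-sided p-values had a Benjamini-Hochberg adjustment over the 5581 genes, and values for second probe sets come from the same model over 6675 probe sets. The fit was tested on simulated data. Alternatives were the offset, filter, scaling, probe set rule, variance model, replicate block, treated arrays alone, and each treated array left out. Precision is limited by the number of arrays. Nothing in the labels says how many mice made up a pool. Promoter windows are from RefSeq, and figures were drawn with matplotlib 3.10.9. Members, lists and tests were chosen with earlier results of these data known. The rule gave all 5 signals for members called with a difference of at least 0.5 and for the 2 brightest of each role. From every other list it took the 3 genes with the largest test statistics in each of the first 2 comparisons. Signals of further members were added, and list genes left out, after values were seen. Csf1r was shown outside this rule.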

Additional observations from a re-analysis of the deposited data

How the results depend on the processing

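With 2 pools per treated group and 1 naive array, few calls were secure against the loss of an array. Leaving out each treated array in turn gave 0 to 7 members higher and 0 to 1 lower with ethanol against poly IC (median 0.0396 to 0.191), 0 to 5 higher and 5 to 12 lower with poly IC against naive (median -0.28 to -0.24), and 0 to 1 higher and 2 to 6 lower with ethanol against naive (median -0.11 to -0.015). For ethanol against poly IC and poly IC against naive the fewest member calls came without poly IC replicate 1, which left 203 and 1289 calls over all genes, against 590 and 1775. Without replicate 2 these were 139 and 1158, and without ethanol replicate 1 they were 1076 and 2357. Over all alternatives, single members lost a call 61 times and gained one 29 times, and no called difference turned its direction. With 1 array left in a group, its spread was taken from the other groups. Without an ethanol array, limma also gave more weight to the variance of other genes, as stated above. A variance model without trend left 0 higher with ethanol against poly IC, 0 higher and 5 lower with poly IC, and 0 and 0 with ethanol against naive, and all genes gave 86 calls with ethanol against poly IC. With no filter, 2 members were higher with ethanol against poly IC and 0 with ethanol against naive, and all genes gave 324 and 645 calls. Averaging probe sets gave a median of 0.14 with ethanol against poly IC and 1 lower with ethanol against naive. The ethanol against naive median was -0.0844 after quantile normalization.

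Scaling moved the medians of all genes. Centring on the array median left 2 members higher with ethanol against poly IC (median -0.0133, the other way), 5 lower with poly IC (median -0.18) and 0 higher with ethanol against naive. Centring on the tested genes, chosen after the data were seen, shifted all 3 comparisons by -0.09, 0.20 and 0.11. It turned the ethanol against poly IC median to -0.0026 and that of ethanol against naive to 0.0943 with 1 lower, and gave 5 higher and 5 lower with poly IC (median -0.0699). All genes then split 194 higher to 286 lower with ethanol against poly IC (main 322 to 268), 843 to 721 with poly IC (main 654 to 1121) and 497 to 270 with ethanol against naive (main 468 to 461).

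Pools with equal replicate numbers did not deviate together (r = 0.05 across 5581 genes, which are not independent). With the replicate block, 5 members were higher and 0 lower with ethanol against poly IC (median 0.085), Atp6v0a2 being added, and all genes gave 778 calls.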
